A study of Homo sapiens with 7 samples.

Results

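Contacts between the 5 human acrocentric chromosomes, 13, 14, 15, 21 and 22, were followed by Hi-C in DLD-1, an established cell line from a colorectal adenocarcinoma, as the degron-tagged DNA methyltransferase DNMT1 was depleted and in cells that also lack DNMT3B. All 10 pairs that these 5 chromosomes form were taken, out of 253 pairs of different chromosomes among chromosomes 1 to 22 and X. The other pairs were 90 of 1 acrocentric and 1 other chromosome, called mixed pairs here, and 153 of 2 non-acrocentric chromosomes. The rule names the chromosomes and uses no measured contact, although it was chosen with earlier results of these data known.

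The short arms of the acrocentric chromosomes carry arrays of ribosomal RNA genes, the nucleolus organiser regions, and arrays from several of these chromosomes can gather in 1 nucleolus. DNMT1 copies methylation onto newly made DNA strands, while DNMT3B can methylate unmethylated DNA, and both ribosomal DNA and the satellite repeats beside centromeres are methylated in human somatic cells. Hi-C ligates the ends of neighbouring stretches of DNA in fixed chromatin and reads each ligated pair, a contact, by sequencing.

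The 7 libraries form 7 groups of 1 library each. Knockout of DNMT3B in the degron line was sampled untreated and after 4 d and 10 d of auxin, and the degron line with DNMT3B intact, DNMT1-AID, was sampled at the same 3 stages and also 4 d after auxin was washed out, auxin having been present for 4 d. Auxin, given as 500 nM indole-3-acetic acid, leads to degradation of DNMT1 through its auxin-inducible degron. The degron is in every library, and effects of DNMT1 loss and of auxin as a compound cannot be told apart. The library taken as untreated knockout is so named by its title, while its genotype label names DNMT1-AID only. Chromosome 8 took 1.42 to 1.43 times its untreated DNMT1-AID share of contact ends in all 3 libraries titled as knockout, the untreated one included. The labels do not say whether the knockout is 1 clone, so a difference between clones cannot be told apart from the knockout.

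With 1 library a group, no difference was tested against replicates, and no p-value is given. The libraries held 27345260 (washout) to 222645438 contacts (4 d of auxin, DNMT1-AID), and a single acrocentric pair held 4681 (21-22, washout) to 204310 contacts (13-14, 4 d of auxin, DNMT1-AID). Each interval beside a raw change is a 95% exact interval that covers only the counting error of that pair's counts. The share of contact ends on each of the 5 chromosomes stayed within 0.963 to 1.08 times its value in untreated DNMT1-AID cells.

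The contacts measured come mainly from the long arms. In 50 kb bins, the short arms of chromosomes 13, 14, 15 and 22 had no valid bin pair in any library, and that of chromosome 21 had at most 6. Between the short and long arm of chromosome 21, 612 to 1851 bin pairs were valid, so a few short-arm bins enter its balanced levels. Raw counts that touched a short arm made up at most 0.461% of the contacts within chromosome 21 and 0.128% of those within chromosome 22. The RefSeq annotation of GRCh38.p14, the assembly of the hg38 build used by the authors, places 3 copies of the 45S ribosomal RNA precursor gene on chromosome 21, RNA45SN2 at chr21:8205988-8219302, RNA45SN3 at chr21:8389035-8402343 and RNA45SN1 at chr21:8433222-8446572. It lists another copy, RNA45SN4, under chromosome 22, whose position was not used here. All 3 positions on chromosome 21 lie before base 10400001, the first base of that chromosome in the interaction clusters that the authors deposited for untreated DNMT1-AID cells. The first protein-coding genes inside those clusters were OR4M1, an olfactory receptor gene, at chr14:19773504-19783696, NIPA2, a magnesium transporter gene, at chr15:22838666-22868384, LIPI, a lipase gene, at chr21:14108812-14210955 and GAB4 at chr22:16961936-17008222. The values that follow therefore describe mainly the long arms of chromosomes that carry ribosomal DNA, and they give no separate value for the ribosomal DNA. Counts between chromosomes were not split by arm, so the short-arm part of the raw counts was not measured.

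Contact was read on 2 scales. The balanced level of a pair is the balanced contact per valid bin pair over that of the median of all 253 pairs, as log2. Balancing as usually done gives every bin the same total contact, within and between chromosomes. This level can therefore mix how much a chromosome contacts all others with how those contacts are spread over its partners. In untreated DNMT1-AID cells, mean balanced contact with non-acrocentric partners ran, as log2, from -0.26 for chromosome 13 to 0.76 for chromosome 22. A high balanced level is thus not by itself a preference for a partner. The raw level is the log2 of the pair's count over the count set by the trans totals of its 2 chromosomes, where a trans total is the number of contacts a chromosome makes with all others. It takes out whatever all pairs of a chromosome share. The acrocentric pairs are part of those totals, so a change common to all 10 comes out smaller on the raw scale by construction. A change is a difference of levels between 2 libraries, and a pair was called higher or lower where the log2 change reached 0.1 in size.

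The acrocentric chromosomes, measured mainly by their long arms, met each other more than most chromosomes do on the balanced scale. The median balanced level of the 10 pairs was 0.40, 0.35 and 0.34 in knockout cells with no auxin, at 4 d and at 10 d. In DNMT1-AID cells it was 0.64 untreated, 0.58 after 4 d, 0.51 after 10 d and 0.60 after washout. Mixed pairs had medians of 0.11 to 0.16 over the 7 libraries, and pairs of 2 non-acrocentric chromosomes -0.09 to -0.06. The 10 pairs together held 1.397% (95% exact binomial interval 1.392 to 1.401), 1.450% (1.446 to 1.454) and 1.403% (1.399 to 1.407) of all trans contacts in knockout cells untreated, at 4 d and at 10 d. They held 1.655% (1.650 to 1.660), 1.595% (1.592 to 1.599) and 1.535% (1.531 to 1.539) in DNMT1-AID cells at the same stages, and 1.635% (1.625 to 1.645) after washout. Every library stood above the 1.09 to 1.10% of trans bin pairs that the 10 pairs cover, and the 3 knockout libraries held the lowest shares of the 7.

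The pairs differed more from each other than any of them did between libraries. Within a library the balanced levels spanned 1.26 to 1.43 on the log2 scale, while a single pair moved by 0.12 (13-15) to 0.36 (14-22) over the 7 libraries. Chromosomes 21 and 22 made the highest pair. Its balanced level was 1.17, 1.23 and 1.24 in knockout cells untreated, at 4 d and at 10 d. In DNMT1-AID cells the level of 21-22 was 1.45, 1.27 and 1.19 at these stages and 1.42 after washout. It ranked between 4 and 8 among 253 pairs, with a contact per bin pair of 2.26 to 2.73 times that of the median pair.

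Chromosomes 15 and 22 came next, with balanced levels of 0.86, 0.88 and 0.82 in knockout cells and 1.16, 0.98 and 0.96 in DNMT1-AID cells, each untreated, at 4 d and at 10 d. After washout 15-22 stood at 1.14. The DNMT1-AID libraries were all above the knockout libraries for this pair. The 15-21 pair was at 0.61, 0.71 and 0.75 in knockout cells, 0.79, 0.71 and 0.70 in DNMT1-AID cells and 0.81 after washout, and here the genotypes overlapped.

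Chromosome 14 had intermediate levels with all 4 partners. Its pair with chromosome 22 stood at 0.47, 0.38 and 0.35 in knockout cells and at 0.71, 0.61 and 0.55 in DNMT1-AID cells, with 0.68 after washout, and no knockout library reached the lowest DNMT1-AID one. The pair 14-21 spanned 0.32 to 0.57 over the 7 libraries and 14-15 spanned 0.21 to 0.42, with the 3 knockout libraries lowest for both pairs. The pair 13-14 was higher, at 0.53, 0.61 and 0.55 in knockout cells, 0.77, 0.71 and 0.65 in DNMT1-AID cells and 0.72 after washout, again with the knockout libraries lowest. The other 3 pairs of chromosome 13, those with 15, 21 and 22, were the lowest of the 10 in each library. Its level with chromosome 22 was -0.11, -0.11 and -0.11 in knockout cells and 0.06, -0.04 and -0.07 in DNMT1-AID cells, with -0.02 after washout. That pair ranked 119 to 153 of 253, near the median pair. The pair 13-15 spanned 0.01 to 0.13 and 13-21 spanned -0.10 to 0.16 over the libraries, with 13-15 above 0 in all 7 libraries and 13-21 above 0 in all but the knockout libraries at 0 d and 4 d of auxin.

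**Figure D1:**
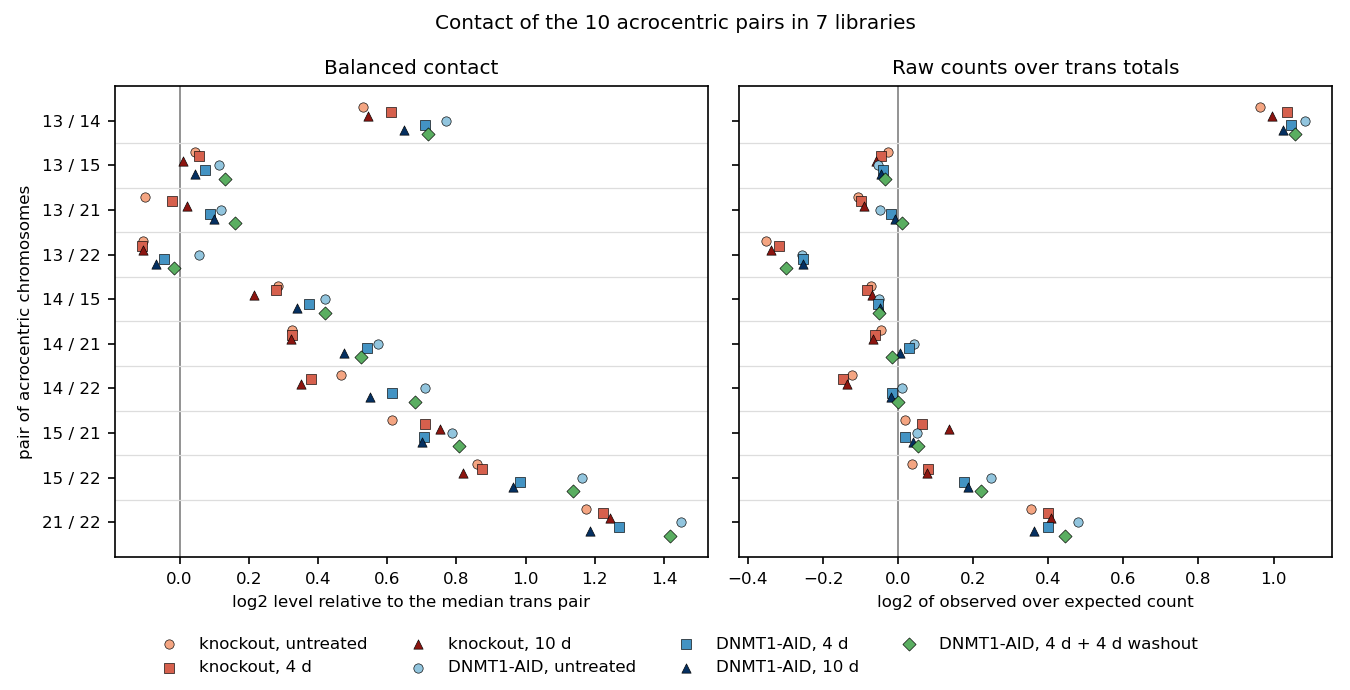
Level of each of the 10 acrocentric pairs in the 7 libraries, as balanced contact (left, log2 relative to the median of 253 trans pairs) and as raw counts over trans totals (right, log2), each point 1 library. The 21-22 pair was highest on the balanced scale and 13-14 on the raw scale, and 13-22 was lowest on both scales in each library.

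Raw counts put a different pair first. Chromosomes 13 and 14 shared 95620, 132704 and 145166 contacts in knockout cells and 112936, 204310 and 173659 in DNMT1-AID cells at 0 d, 4 d and 10 d of auxin, with 28109 after washout. These counts were 1.95, 2.05 and 1.99 times those set by the trans totals in knockout cells and 2.12, 2.07 and 2.03 times in DNMT1-AID cells, with 2.08 times after washout. The 13-14 pair ranked 1 of 253 by raw level in each library, yet 23 to 35 by balanced level. It alone held 26.7% to 28.1% of the contacts among the acrocentric chromosomes. Each of its chromosomes also had a high raw level with chromosome 10: 10-13 was 1.66 to 1.79 times the count set by the totals and ranked 3 or 4, and 10-14 was 1.48 to 1.53 times and ranked 6 to 9. These 2 pairs were named after their values were seen, and what joins chromosomes 10, 13 and 14 was not tested.

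Of the other raw levels, only 21-22 lay far above its totals in all libraries, at 0.36, 0.40 and 0.41 in knockout cells, 0.48, 0.40 and 0.36 in DNMT1-AID cells and 0.45 after washout. The 15-22 pair was at 0.04, 0.08 and 0.08 in knockout cells, 0.25, 0.18 and 0.19 in DNMT1-AID cells and 0.22 after washout. The 13-22 pair had one of the lowest raw levels of all, -0.35 to -0.25 over the 7 libraries, ranking 244 to 252. The 6 pairs 13-15, 13-21, 14-15, 14-21, 14-22 and 15-21 lay between -0.15 and 0.14. The median raw level of the 10 pairs was therefore near 0, from -0.06 to 0.03. Medians were -0.05 to -0.02 for mixed pairs and 0.068 to 0.073 for pairs of 2 non-acrocentric chromosomes. The acrocentric median was thus below that of pairs of 2 non-acrocentric chromosomes in every library. It was above that of mixed pairs in the DNMT1-AID libraries and below it in the knockout libraries. Without 13-14, the other 9 pairs held 1.02% to 1.19% of trans contacts on 0.858 to 0.863% of trans bin pairs. On the raw scale, 13-14 and 21-22 thus stood well above the counts set by the totals in every library, and the median of the 10 pairs did not.

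Each acrocentric chromosome was also compared with its own other partners. On the balanced scale, the mean contact with the other 4 acrocentric chromosomes over that with the 18 non-acrocentric ones was above 0 on the log2 scale for chromosomes 13, 14, 15 and 21 in all libraries. For chromosome 13 it was 0.45, 0.47 and 0.43 in knockout cells, 0.56, 0.53 and 0.51 in DNMT1-AID cells and 0.56 after washout. For chromosome 22 it was -0.04, -0.001 and -0.00019 in knockout cells, 0.17, 0.11 and 0.10 in DNMT1-AID cells and 0.15 after washout. The ratio of chromosome 22 was thus above 0 in the DNMT1-AID libraries and at or just below 0 in the knockout libraries. Chromosomes 14, 15 and 21 lay between, and for all 5 chromosomes each knockout library was below each DNMT1-AID library. On the raw scale the ratios of chromosomes 13 and 14 stayed between 0.25 and 0.36, which includes their pair with each other, and those of chromosomes 15, 21 and 22 lay between -0.12 and 0.07.

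**Figure D2:**
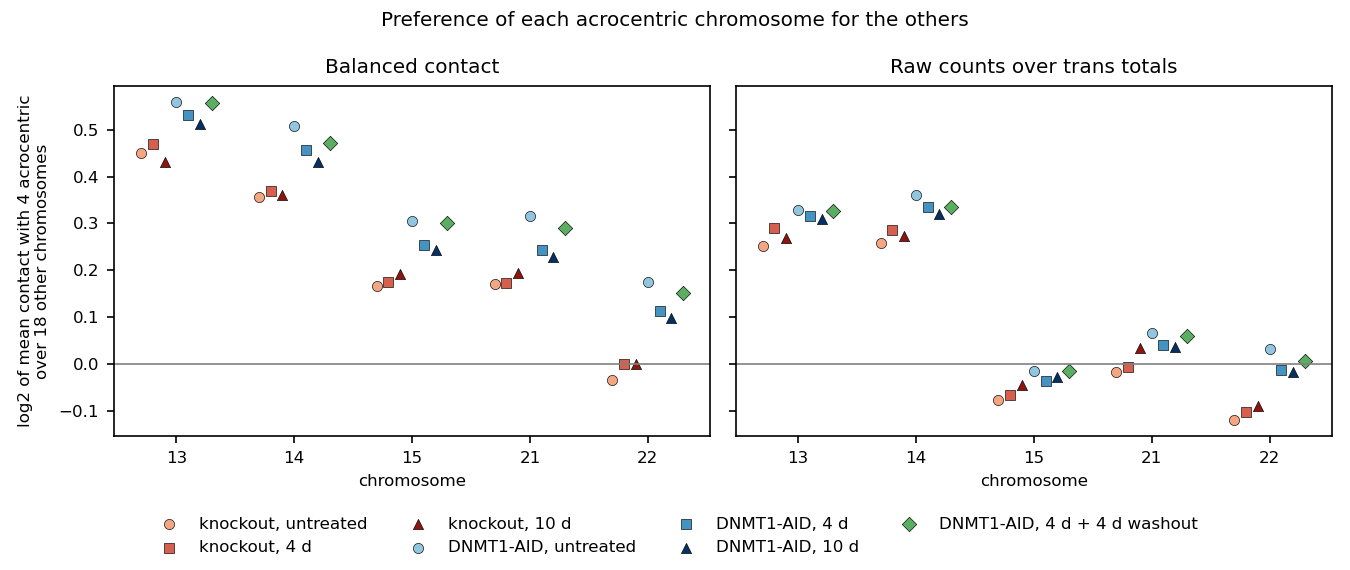
Mean contact of each acrocentric chromosome with the 4 others over its mean contact with 18 non-acrocentric chromosomes (log2), on the balanced scale (left) and from raw counts over trans totals (right), 1 point per library. Knockout libraries lie below DNMT1-AID libraries for every chromosome on the balanced scale.

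Chromosome 22, which is in both of the highest balanced pairs, was rich in genes and in the cluster that the authors call A1. Protein-coding genes numbered 14.1 per valid Mb on chromosome 22, 8.57 on chromosome 15, 7.27 on chromosome 14, 7.18 on chromosome 21 and 3.61 on chromosome 13. Of the clustered 50 kb bins of chromosome 22, 44.3% were in A1, against 7.08% of all clustered bins, and 3.86% were in B2/B3, the inactive cluster, against 36.8%. Chromosome 21 had 9.62% in A1 and 45.7% in B2/B3, chromosome 14 had 4.52% and 38.7%, and chromosome 15 had 8.47% and 25.3%. The highest pair, 21-22, therefore joined the chromosome with the highest share of bins in A1 to the one with the highest share of bins in B2/B3 among these 4. The clusters of chromosome 13 were not used here. Over the 10 pairs, the balanced level had a Spearman rho of 0.55 to 0.62 and a Pearson r of 0.59 to 0.68 with the mean log2 gene density of the 2 chromosomes. This is a description over 10 points that share 5 chromosomes.

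Contacts of each chromosome with any other chromosome differed between libraries as well. Chromosome 22 sent 58.1%, 56.7% and 62.1% of its contacts to other chromosomes in knockout cells and 53.3%, 50.3% and 58.4% in DNMT1-AID cells at 0 d, 4 d and 10 d of auxin, with 55.6% after washout. For chromosome 13 the shares were 42.3%, 41.4% and 48.1% in knockout cells, 38.2%, 36.3% and 44.2% in DNMT1-AID cells and 40.4% after washout. The trans share of the whole library was likewise higher in knockout than in DNMT1-AID cells at each stage, with 25.2%, 24.4% and 29.2% in knockout and 21.4%, 20.5% and 26.2% in DNMT1-AID cells. Within the long arm of chromosome 22, contacts at 10 Mb or more made up 6.21%, 5.77% and 6.92% in knockout cells, 7.57%, 5.51% and 7.16% in DNMT1-AID cells and 7.61% after washout. A shift shared by all pairs of a library is taken out of both levels, while a shift of 1 chromosome's trans contacts can enter its balanced levels. The part of the trans share in the results was not tested.

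The first question was what loss of DNMT1 did to these contacts. After 4 d of auxin in DNMT1-AID cells, all 10 acrocentric pairs had a lower balanced level than in untreated cells, where 66.4% of the 253 pairs were lower. The median change of the 10 pairs was -0.07, a fold of 0.952, against -0.02 for mixed pairs and -0.0062 for pairs of 2 non-acrocentric chromosomes. Of the 10, 3 were called lower, where 4.74% of all pairs were. They were 15-22 with -0.18, 21-22 with -0.18 and 13-22 with -0.10, and all 3 involve chromosome 22. The first 2 were the lowest changes among the 253 pairs. The lowest mixed pair, 20-22, also involved chromosome 22, with -0.16. Without the 4 pairs of chromosome 22 the median of the other 6 was -0.04.

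Raw counts carried the change in only some pairs. There, 7 of 10 were below 0, where 45.1% of all pairs were, with a median change of -0.02 and none called lower. The counting interval lay below 0 for 5 pairs and above 0 for 1, a count that was not made over all pairs. The 21-22 pair changed by -0.08 (-0.11 to -0.05) and 15-22 by -0.07 (-0.09 to -0.05), ranks 2 and 3 from the lowest of 253. On the balanced scale, pairs of higher level had lower changes across all 253. The median balanced change of the acrocentric pairs minus this trend was -0.02.

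At 10 d of auxin the same comparison gave -0.11 for the median acrocentric pair, a fold of 0.927, with mixed pairs at -0.03 and the others at 0.0063. All 10 pairs were again lower than in untreated cells, where 57.7% of all pairs were, and 5 were called lower, where 13.4% were. The lowest of the 253 was 21-22 with -0.26, followed among acrocentric pairs by 15-22 with -0.20, 14-22 with -0.16, 13-22 with -0.13 and 13-14 with -0.12. Chromosome 22 thus took part in 4 of the 5 called pairs. It also made the lowest mixed pair, 17-22, with -0.26. The 13-21 pair moved least, with -0.02.

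On the raw scale, 6 of 10 pairs were below 0 at 10 d, where 45.1% of all pairs were, and the median was -0.02. Only 21-22 was called lower, with -0.12 (-0.14 to -0.09), where 1.19% of all pairs were, and it was the lowest of 253. The 13-22 pair changed by 0.0032 (-0.02 to 0.03), so its balanced change did not stand in its raw counts. The median balanced change minus the trend on level was -0.03. The 4 d and 10 d comparisons share the untreated library. Set directly against 4 d, the 10 d library had 9 of 10 pairs lower, where 54.5% of all pairs were, with a median of -0.03 and none called.

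After auxin, the balanced change was further below 0 with acrocentric than with other partners for all 5 chromosomes. Contact of chromosome 22 with the other 4 changed by -0.15 at 4 d and -0.20 at 10 d of auxin, and with its 18 other partners by -0.09 and -0.13. For chromosome 13 the changes were -0.06 and -0.09 with acrocentric and -0.03 and -0.04 with other partners. The ratio of acrocentric over other contact changed by -0.07 to -0.03 at 4 d and -0.09 to -0.05 at 10 d over the 5 chromosomes, below 0 in each.

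The washout library asks whether contacts return once auxin is removed. Balanced levels after washout differed from those of untreated cells by less than 0.1 in all 10 pairs. The same held for all 253 pairs, whose changes ran from -0.074 to 0.068. The median change against untreated was -0.03, with 7 of 10 pairs lower, where 45.8% of all pairs were, and no pair called. The 13-22 pair nevertheless had the lowest balanced change of all 253, -0.07, with a raw change of -0.04 (-0.09 to 0.0012). On the raw scale 13-21 had the highest change of 253, 0.06 (0.02 to 0.10), and 14-21 the second lowest, -0.06 (-0.10 to -0.02). The 21-22 pair had 18154 contacts untreated, 30777 at 4 d and 4681 after washout, at balanced levels of 1.45, 1.27 and 1.42. Against 4 d of auxin, 9 of 10 pairs were higher after washout and 1 lower, where 26.1% of all pairs were lower. The median change was 0.06, with 0.03 for mixed and 0.0097 for other pairs.

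Single pairs of chromosomes 15, 21 and 22 stood out. The pairs 15-22 with 0.15 and 21-22 with 0.15 had the highest changes of all 253, and 15-21 was also called with 0.10, making 3 called higher, where 4.35% of all pairs were. The 4 d library also enters the comparison of 4 d with untreated cells. The raw changes were 0.05 (0.01 to 0.08) for 15-22, 0.05 (0.003 to 0.09) for 21-22 and 0.04 for 15-21, the last with an interval that reached 0. The median raw change of the list was 0.01. The washout library was the shallowest, and the raw counting interval held 0 for 6 of 10 pairs against 4 d and for 7 against untreated.

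**Figure D3:**
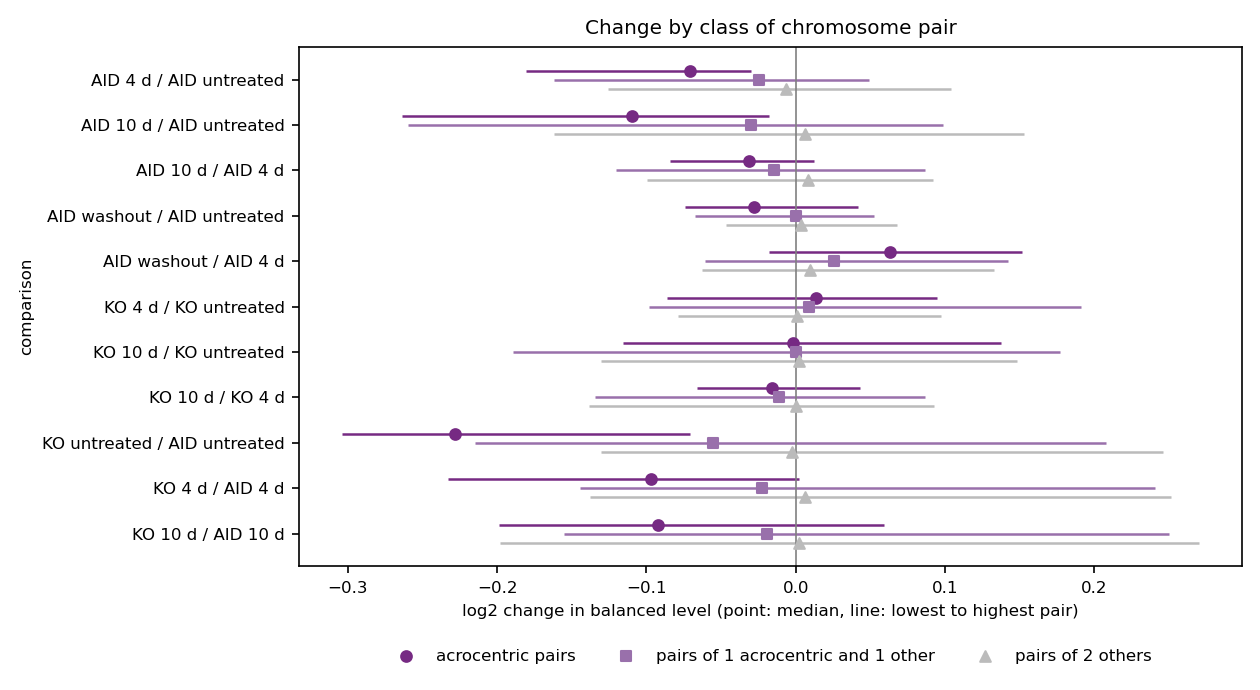
Change in balanced level (log2) for the 10 acrocentric, 90 mixed and 153 other pairs in each of 11 comparisons, written as library over library, with the median as a point and a line from the lowest to the highest pair. AID stands for DNMT1-AID and KO for the DNMT3B knockout. The acrocentric median lies furthest from 0 in the comparison of untreated knockout with untreated DNMT1-AID cells.

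In knockout cells the list showed no common direction after auxin on the balanced scale. After 4 d, 4 of 10 pairs were lower than in untreated knockout cells, where 45.5% of all pairs were, and the median change was 0.01 with no pair called. After 10 d, 6 of 10 were lower, where 48.2% were, with a median of -0.0018. The 15-21 pair was called higher at 10 d with 0.14 and 13-21 with 0.12, where 3.95% of all pairs were. The 14-22 pair was called lower with -0.12, where 3.56% were. The 3 called pairs thus stood on opposite sides. The raw ratio of acrocentric over other contact rose for all 5 chromosomes at both times. It changed by 0.01 to 0.04 at 4 d and 0.01 to 0.05 at 10 d. On the balanced scale the ratio changed by 0.0015 to 0.03 at 4 d and -0.02 to 0.03 at 10 d. Only chromosome 13 was below 0 there, at 10 d.

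The change of 15-21 stood in the raw counts as well. Its count of contacts gave a raw change of 0.12 (0.10 to 0.14), the highest of 253 pairs and the only one called higher, where 0.395% of all pairs were. Raw levels of 15-21 were 0.02, 0.06 and 0.14 in knockout cells untreated, at 4 d and at 10 d. Raw changes of 13-21 and 14-22 were 0.02 (-0.01 to 0.04) and -0.01 (-0.04 to 0.0086), within counting error of 0. Against untreated knockout cells, 4 of 10 pairs had a lower raw level at 4 d, where 54.5% of all pairs did. At 10 d 3 of 10 did, where 56.1% did. The median raw changes were 0.02 at 4 d and 0.01 at 10 d, against -0.0064 and -0.0070 for mixed pairs. Between 4 d and 10 d, 6 of 10 pairs were lower at 10 d, where 54.2% of all pairs were, with a median of -0.02 and no pair called.

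The auxin effect was then set side by side in the 2 genotypes. At 4 d the effect in knockout cells exceeded that in DNMT1-AID cells for 10 of 10 pairs, where 67.6% of all pairs did, with a median difference of 0.10. Mixed pairs had a median difference of 0.03 and other pairs 0.0092. At 10 d it again exceeded it for 10 of 10, where 61.3% did, with a median of 0.13, against 0.03 for mixed and 0.0051 for other pairs. The 21-22 pair had the highest difference of 253 at both times. Its balanced auxin effect was 0.05 in knockout and -0.18 in DNMT1-AID cells at 4 d, and 0.07 in knockout and -0.26 in DNMT1-AID cells at 10 d.

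On the raw scale the difference was smaller and mixed in sign. There 6 of 10 pairs had the higher effect in knockout cells at 4 d, where 40.3% of all pairs did, and 7 of 10 at 10 d, where 43.1% did, with median differences of 0.02 and 0.01. Single pairs did stand apart. The raw auxin effect on 21-22 was 0.04 in knockout and -0.08 in DNMT1-AID cells at 4 d, and 0.05 in knockout and -0.12 in DNMT1-AID cells at 10 d, ranking 3 and 1 of 253 from the highest by the difference. The untreated libraries enter both times, so the 2 times are not independent, and with 1 library a group the difference was not tested.

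**Figure D4:**
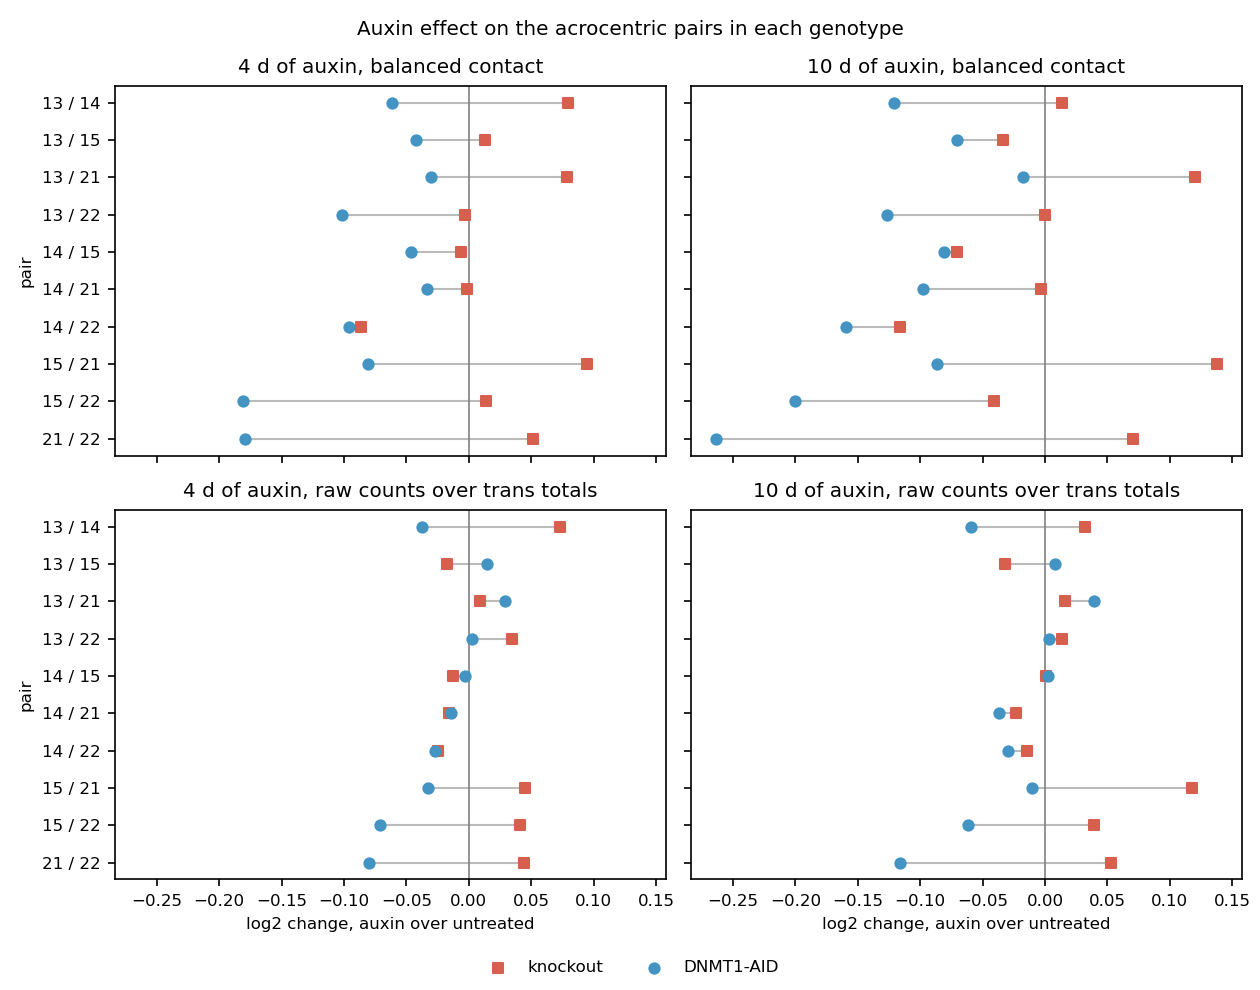
Log2 change between auxin and untreated cells for each acrocentric pair in knockout (squares) and DNMT1-AID cells (circles), at 4 d (left) and 10 d (right), on the balanced scale (top) and from raw counts over trans totals (bottom). On the balanced scale the knockout point lies to the right of the DNMT1-AID point for all 10 pairs at both times, while on the raw scale this is so for 6 pairs at 4 d and 7 at 10 d.

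The largest difference lay between the genotypes before auxin. In untreated knockout cells all 10 acrocentric pairs had a lower balanced level than in untreated DNMT1-AID cells, where 65.2% of all pairs were, and 9 were called lower, where 14.2% were. The median change was -0.23, a fold of 0.854, with -0.06 for mixed pairs and -0.0024 for the others. The 6 lowest changes of all 253 pairs were acrocentric. They were 15-22 with -0.30, 21-22 with -0.28, 14-21 with -0.25, 14-22 with -0.24, 13-14 with -0.24 and 13-21 with -0.22. The pairs 15-21, 13-22 and 14-15 followed with -0.17, -0.16 and -0.14, and 13-15 was not called, with -0.07.

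Most of these differences also stood in the raw counts. There, 9 of 10 pairs were below 0, where 47.4% of all pairs were, each with a counting interval below 0, and 4 were called lower, where 3.16% were. The 4 were 15-22 with -0.21 (-0.23 to -0.19), the lowest of 253, 14-22 with -0.13 (-0.16 to -0.11), 21-22 with -0.12 (-0.15 to -0.09) and 13-14 with -0.12 (-0.13 to -0.11). The median raw change was -0.09, against 0.01 for mixed pairs. The exception was 13-15, with 0.03 (0.0088 to 0.05). The median balanced change minus the trend on level was -0.16.

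Contact with acrocentric partners was lower by more than contact with others for all 5 chromosomes. The change was -0.18 for chromosome 13, -0.22 for 14, -0.19 for 15, -0.24 for 21 and -0.26 for 22 with the other acrocentric chromosomes. With the 18 others it was -0.07, -0.07, -0.05, -0.09 and -0.05 in the same order of chromosomes. The lowest mixed pair, 15-17, was at -0.21 and the highest, 8-22, at 0.21.

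With auxin in both genotypes the difference was smaller and no longer held for all pairs. At 4 d, 9 of 10 pairs were lower in knockout cells, where 53.4% of all pairs were, and 4 were called lower, where 7.51% were, with a median change of -0.10. At 10 d, 8 of 10 were lower, where 54.5% were, and 5 were called lower, where 12.3% were, with a median of -0.09. The lowest 2 changes of the list were both pairs of chromosome 14. The 14-22 pair had the lowest change of 253 at both times, -0.23 at 4 d and -0.20 at 10 d, and 14-21 had -0.22 at 4 d and -0.15 at 10 d. Without the 4 pairs of chromosome 14 the medians were -0.06 at 4 d and -0.04 at 10 d.

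Chromosome 21 no longer showed the difference with 15 and 22. The change of 21-22 was -0.28 in untreated cells, -0.04 at 4 d and 0.06 at 10 d. That of 15-21 was -0.17, 0.0023 and 0.05 at these stages. Raw counts gave 8 of 10 pairs lower at 4 d, where 55.3% of all pairs were, with 1 called lower, where 2.37% were. They gave 8 of 10 at 10 d, where 53% were, with 2 called lower, where 4.74% were. The called pair at 4 d was 14-22, with -0.13 (-0.15 to -0.11), and at 10 d they were 14-22 with -0.12 (-0.14 to -0.10) and 15-22 with -0.11 (-0.13 to -0.09). The raw change of 15-21 was 0.05 (0.03 to 0.06) at 4 d and 0.10 (0.08 to 0.11) at 10 d, higher in knockout cells.

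**Figure D5:**
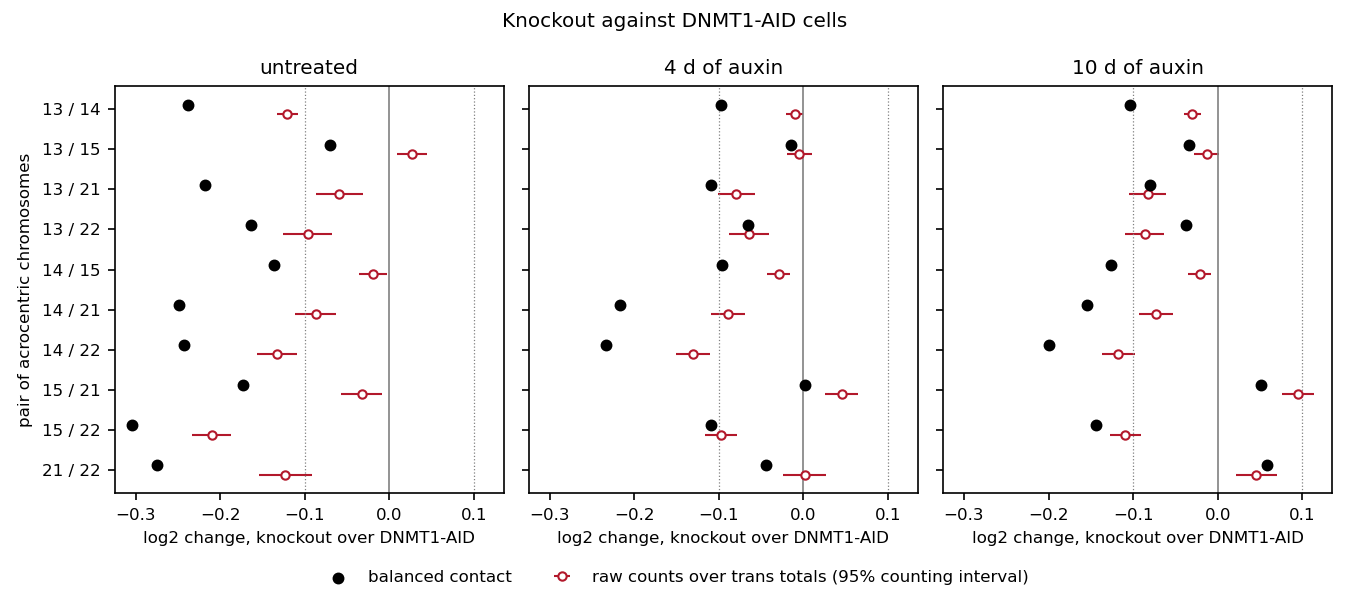
Log2 change of each acrocentric pair in knockout over DNMT1-AID cells, untreated (left), at 4 d (middle) and at 10 d of auxin (right), as balanced contact (filled) and raw counts over trans totals with 95% counting intervals (open). Dotted lines mark a log2 change of 0.1 in size. The untreated panel lies below 0 for all pairs on the balanced scale, where 15-22 is lowest, and 14-22 is lowest at 4 d and 10 d.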

How the data were processed

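Hi-C was made with an Arima kit, per the labels' protocols, and BWA and hg38 are named in the submitters' processing notes. For read filtering and for balancing, the sources used here give no program. For each library and pair of chromosomes, the authors deposited the raw count of contacts, the balanced signal summed over 50 kb bin pairs and how many bin pairs were valid, per the file headers. The count also holds contacts of bins with no balanced value, while the deposited balanced signal covers valid bins alone. No pair was left out by depth.

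Levels, ranks, changes and counts of called pairs were computed with Python 3.11.15, numpy 2.4.6, pandas 2.3.3 and scipy 1.17.1, and drawn with matplotlib 3.10.9. The calculation was tested on simulated counts. The 11 comparisons set auxin and washout against earlier stages within a genotype, and knockout against DNMT1-AID cells at each shared stage. Each acrocentric pair's count has an exact 95% interval for counting error, which holds no spread between cultures. Genes were counted per valid Mb from RefSeq, from 10 Mb of each chromosome on. The text names all 10 pairs, the 5 chromosomes, for a comparison at most the lowest and highest mixed pair, the ribosomal RNA genes and the first gene of the clusters on each chromosome. Pairs 10-13 and 10-14 fall outside this rule. The pairs, call size and alternatives were chosen with earlier results of these data known.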

Additional observations from a re-analysis of the deposited data

Results flagged for a closer look

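The effect of auxin had opposite directions in the 2 genotypes, on both scales and with both counting intervals clear of 0, for 4 pairs at 4 d and 2 pairs at 10 d. Each direction rests on 1 library against 1, and the difference between genotypes was not tested. The same count was not made over all pairs of chromosomes, so whether opposite directions are particular to these pairs was not tested. At 4 d of auxin, the balanced log2 effect in knockout minus that in DNMT1-AID cells was 0.14 for 13-14, 0.18 for 15-21, 0.19 for 15-22 and 0.23 for 21-22. At 10 d it was 0.13 for 13-14 and 0.33 for 21-22. In all 6 cases the pair was higher after auxin in knockout cells and lower in DNMT1-AID cells. The untreated libraries enter both times, and in these the 4 pairs were lower in knockout than in DNMT1-AID cells.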

How the results depend on the processing

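No paired analysis was possible because each group held 1 library. Leaving out a chromosome, which leaves 6 pairs, gave median changes of -0.091 to -0.044 for 4 d and -0.13 to -0.084 for 10 d of auxin against untreated DNMT1-AID cells, and -0.062 to -0.023 for 10 d against 4 d. It gave -0.041 to 0.0079 for washout against untreated cells and 0.048 to 0.087 for washout against 4 d. In knockout cells the ranges were 0.0053 to 0.046 for 4 d and -0.037 to 0.035 for 10 d against untreated cells, and -0.051 to 0.011 for 10 d against 4 d. Knockout against DNMT1-AID cells gave -0.25 to -0.20 with no auxin, -0.10 to -0.055 at 4 d and -0.14 to -0.036 at 10 d, and the difference of auxin effects was 0.077 to 0.14 at 4 d and 0.085 to 0.15 at 10 d. With raw counts over trans totals, the median was -0.021 for 4 d and -0.020 for 10 d of auxin against untreated DNMT1-AID cells, -0.00085 for 10 d against 4 d and 0.013 for washout against 4 d. It was -0.092 for untreated, -0.047 for 4 d and -0.051 for 10 d knockout against DNMT1-AID cells, and 0.017 at 4 d and 0.015 at 10 d for the difference of auxin effects. On that scale 0 pairs at 4 d and 1 at 10 d were called lower than in untreated DNMT1-AID cells and 0 were called higher after washout than at 4 d. In knockout cells 0 were called lower and 1 higher at 10 d, and against DNMT1-AID cells 4 were called lower before auxin, 1 at 4 d and 2 at 10 d. Pair 13-22 turned to 0.0023 at 4 d and 0.0032 at 10 d against untreated DNMT1-AID cells.

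A call size of 0.05 gave 6 pairs lower at 4 d and 9 at 10 d against untreated DNMT1-AID cells, 4 at 10 d against 4 d, and 3 lower after washout than untreated, with 6 higher after washout than at 4 d. In knockout cells it gave 1 lower and 4 higher at 4 d, 2 lower at 10 d and 3 lower at 10 d than at 4 d. Against DNMT1-AID cells it gave 7 lower at 4 d and 2 higher at 10 d. The share of all pairs called at 0.05 was not computed, so these counts have no background to be read against. Minus the trend on level, the median was -0.023 at 4 d and -0.032 at 10 d against untreated DNMT1-AID cells and -0.16 for untreated knockout against DNMT1-AID cells. With autosomes alone it was -0.046 at 4 d and -0.088 at 10 d against untreated DNMT1-AID cells, and 0.0099 for 10 d against 4 d in knockout cells. Without chromosome 8, knockout against DNMT1-AID cells gave -0.20 before auxin, then -0.076 at 4 d and -0.061 at 10 d. Set against the median of non-acrocentric pairs it was -0.26 untreated and -0.11 at 10 d. Raw counts per valid bin pair gave -0.27, -0.13 and -0.15 for the 3 stages. This setting for the list, and those minus the median change of all pairs or without 13-14, were chosen after seeing the data. Raw counts per valid bin pair also turned the level of 13-15 to -0.052 in untreated cells and -0.050 after washout, and that of 13-21 to -0.052 at 10 d, all in DNMT1-AID cells. With totals over non-acrocentric partners, 15-21 turned to -0.011 on the raw scale in knockout cells at 10 d. The cause of these shifts was not tested. Counting error, largest after washout, is known, while the spread between cultures is not.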
